A study of Homo sapiens with 12 samples.

Results

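Replication-dependent histone genes were followed on 12 one-colour Agilent whole-genome arrays of H358 lung cancer cells. A gene was taken when the RefSeq accession of its probe mapped to a symbol of the H1-1 to H1-6, H2AC, H2BC, H3C or H4C families. This gave 75 probes of 63 genes, out of 41000 gene probes and 16554 named genes on the arrays. The linker histone H1 had 6 probes, H2A had 21, H2B had 20, H3 had 14 and H4 had 14. The cells were the H358/Tet-On/SRSF2 clone, 1 clone of a lung adenocarcinoma line that carries the splicing factor SRSF2 under a Tet-responsive promoter. Of the arrays, 6 were labelled SRSF2 over-expression, with 1 µg/mL doxycycline for 24 hours, and 6 were labelled control, with no treatment given in the labels. The question put to the data was which histone genes differed between these conditions. Per the study's supplement, each condition came from 3 labelling reactions with 2 arrays each, so the arrays are not all separate samples and p-values measure in part a technical spread.

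Replication-dependent histone genes supply the proteins that package newly copied DNA, and they are transcribed mainly while DNA is being synthesised. H2A pairs with H2B and H3 with H4 in the core of the nucleosome, and H1 binds the DNA that links nucleosomes. Most of these genes lie in clusters of near-identical copies, lack introns, and yield mRNAs that end in a conserved stem-loop in place of a poly(A) tail. The stem-loop is bound by SLBP, and the end is cut by a complex guided by the U7 small nuclear RNA. Some copies can also yield polyadenylated mRNA, for example in cells that leave the cell cycle. The labelling kit used for the arrays primes from poly(A), so the signals may reflect that form in particular, which was not tested.

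The SRSF2 probe itself went against its label. Its log2 signal was 3.91 ± 0.10 (SD, n = 6) on control arrays and 2.45 ± 0.09 (SD, n = 6) on the others, a log2 fold change of -1.46 ± 0.06 (SE, limma adjusted p = 1.19e-09). Directions below are therefore those of the arrays with the SRSF2 over-expression label over the control arrays, whatever the SRSF2 level. The study also measured SRSF2 by western blot and by RT-PCR, and reported more SRSF2 mRNA by RT-PCR in the over-expressing cells than in control cells. Those measurements are not used here, and whether the array probe reads the mRNA of the transgene was not examined. Between 54.2% and 68.0% of the spots were well above background per array. The arrays lie on 3 slides, each with 2 arrays of both conditions. All 6 epithelial marker genes were well above background on all arrays by at least 1 probe, with a summed level (in units of the array's 75th percentile) of 887 to 1046 on control arrays and 721 to 916 on the others. None of the 6 fibroblast marker probes was well above background on any array, and PTPRC and CDH5, defining markers of leukocytes and endothelium, were likewise absent. Of the 6 lung marker genes, 4 (NKX2-1, SFTPC, NAPSA and SCGB1A1) were well above background on all 12 arrays by at least 1 probe, and SFTPB and SFTPD on at most 3 of 6 arrays of a condition.

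The histone classes moved in different directions. Most H2A and H4 probes fell, most H2B probes rose by a small amount, H1 probes fell or did not pass the test, and most H3 probes did not pass it. Of the 75 probes, 68 probes of 57 genes were bright enough to be tested, which asked for a signal well above background on 5 or more of a condition's 6 arrays. With a limma adjusted p threshold of 0.05, 17 were higher and 27 were lower on the arrays labelled SRSF2 over-expression. Over all 24336 probes tested, 29.5% were higher and 28.4% were lower, against 25% and 39.7% of the histone probes. With a fold change of at least 2, 5 histone probes were lower and 0 were higher, where 3.37% and 3.65% of all probes were. The arrays of the 2 conditions did not overlap for 13 histone probes that were higher and 19 that were lower, beside 21.2% and 19.0% of all probes. The share of histone probes called higher was thus below that of all probes and the share called lower was above it, with a median log2 fold change of -0.08 beside 0.00 for all probes. The classes were not alike within that set: 15 of 20 H2A probes were lower and 1 was higher, 15 of 19 H2B probes were higher and 0 were lower, and 7 of 11 H4 probes were lower and 0 were higher. The median log2 fold change was -0.38 for H2A, -0.29 for H4, -0.33 for H1, 0.02 for H3 and 0.31 for H2B. These are bulk measurements, so fewer cells in the DNA synthesis phase and less RNA per cell cannot be told apart. The array files give no probe sequences, so how far a probe also bound other copies of its class was not examined, and counts over probes of 1 class may not be independent.

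**Figure D1:**
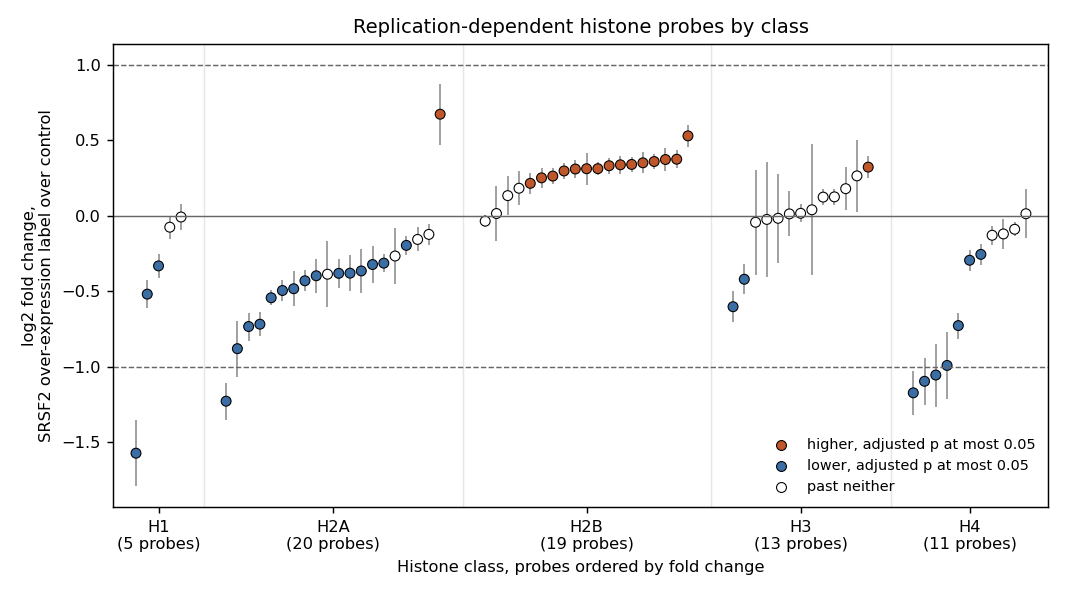
Log2 fold change (arrays labelled SRSF2 over-expression over control arrays, 6 of each) of the 68 tested histone probes, grouped by class and ordered within it; bars are standard errors and dashed lines mark 2-fold. The 15 called H2B probes form a band between 0.21 and 0.53, while 19 of 20 H2A probes and 10 of 11 H4 probes lie below 0.

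The direction of the H2A and H2B class medians did not depend on the scaling of the arrays. Scaling on 6 spike-in control probes raised the log2 fold change of all probes, with a median of 0.22 over all probes tested, and the H2A and H2B medians were then -0.17 and 0.52, or -0.39 and 0.31 relative to that median. Far fewer probes then passed the test, with 2 H2A probes lower and 4 H2B probes higher. A comparison of classes on the same array needs no scaling. For each probe the deviation from its mean over the control arrays was taken, and the median of these over a class was computed on every array. The median deviation of H2B minus that of H2A ranged from -0.07 to 0.08 over the 6 control arrays and reached 0.70 to 0.88 on the 6 arrays with the SRSF2 label. H2A medians ran from -0.60 to -0.33 and H2B medians from 0.28 to 0.39 on the latter arrays, so all 6 showed both shifts. H4 medians ran from -0.42 to -0.16 and H1 medians from -0.54 to -0.15 on these arrays, below the control ranges of -0.10 to 0.07 and -0.13 to 0.11. H3 medians ran from -0.40 to 0.43 and overlapped the control range of -0.24 to 0.30. Under spike-in scaling the median log2 fold changes of H4 and H1 were smaller in size, at -0.08 and -0.12.

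**Figure D2:**
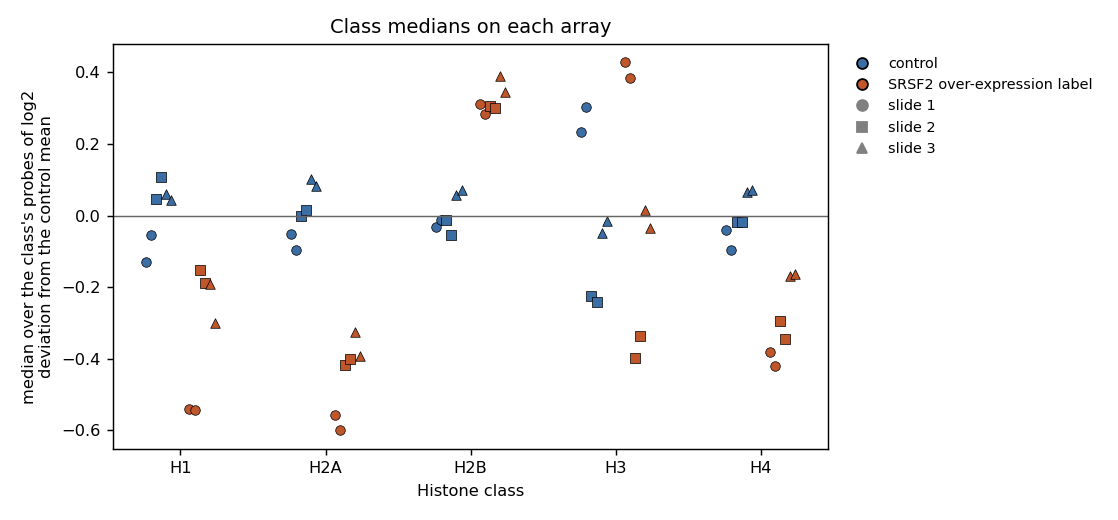
Median over the probes of a class of the log2 deviation from each probe's control mean, for each of the 12 arrays, with the slide as the marker shape. Signals were scaled on the array's 75th percentile. H2A lies lowest on slide 1 (-0.60 and -0.56), H2B ranges from 0.28 to 0.39 on the 6 arrays with the SRSF2 label, and H3 medians spread by slide in both conditions.

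H4 is the core histone with the largest number of strong falls. Most H4 genes of this kind code for the same protein. The H4C4 probe ran from 1.83 to 2.30 (median 1.90) on control arrays and from 0.56 to 1.26 (median 0.64) on arrays labelled SRSF2 over-expression, on the log2 scale relative to the array's 75th percentile. Every control array was above every other array, and the log2 fold change was -1.17 ± 0.15 (SE, limma adjusted p = 1.7e-05, a fold change of 2.26). The exact permutation p = 0.00216, two-sided, is the smallest that 6 arrays against 6 allow. It counts the arrays as separate samples, although they share labelling reactions. The study's RT-PCR of this gene, on separately isolated RNA, also gave a lower level, with a smaller fall than on these arrays. H4C2 ran from 3.98 to 4.07 on control arrays and from 2.47 to 3.43 on the others, with a log2 fold change of -1.10 ± 0.15 (SE, limma adjusted p = 5.12e-05). H4C13 ran from 5.2 to 5.55 and from 3.72 to 4.97, with a log2 fold change of -1.06 ± 0.21 (SE, limma adjusted p = 0.000791). H4C3 ran from 7.30 to 7.78 and from 5.85 to 7.18, with a log2 fold change of -0.99 ± 0.22 (SE, limma adjusted p = 0.00209), just short of 2-fold. The conditions did not overlap for any of these 4 probes. With normexp background correction H4C13 (-0.88, adjusted p = 0.0574) and H4C3 (-0.87, adjusted p = 0.0753) were no longer called.

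The falls of these 4 H4 probes were unequal between slides. On slide 1 the log2 difference lay between -1.61 for H4C4 and -1.44 for H4C3. On slide 2 it lay between -0.60 for H4C13 and -0.56 for H4C3, and on slide 3 between -1.32 for H4C4 and -0.98 for H4C3. The order slide 1, slide 3, slide 2 was the same for all 4, and the spread over arrays labelled SRSF2 over-expression (SD 0.32 to 0.57) was larger than over control arrays (SD 0.04 to 0.21). Without slide 1, H1-1 (-1.47) and H2AC1 (-1.16) were the histone probes still past 2-fold, so that 2 probes in place of 5 were called, while the 4 H4 probes stayed below an adjusted p of 0.05. H4C1, a dim probe whose signal cleared the background on 6 control arrays and 5 of the others, fell by 0.73 ± 0.09 on the log2 scale (SE, limma adjusted p = 1.14e-05) with no such slide order (-0.63, -0.77 and -0.78), and was not called under spike-in scaling (adjusted p = 0.0727) or normexp (0.481). H4C11 and H4C12 were lower by smaller amounts, with log2 fold changes of -0.29 and -0.26. The remaining 4 tested H4 probes, of H4C6, H4C8, H4C9 and H4C14, did not pass the test and lay between -0.13 and 0.01.

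**Figure D3:**
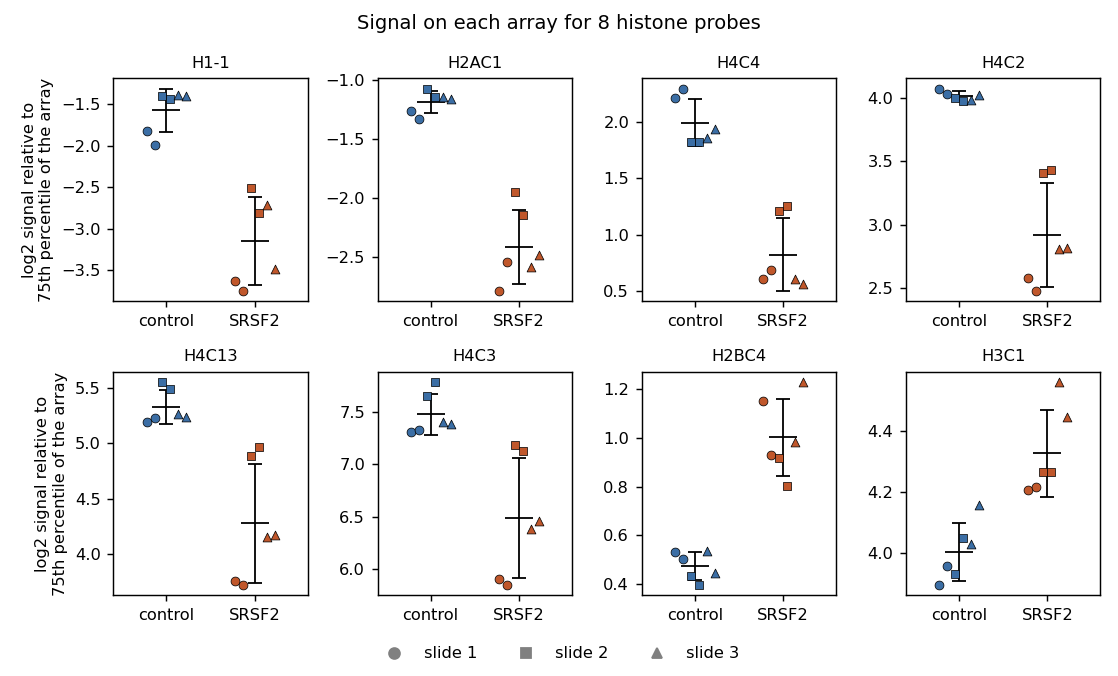
Log2 signal relative to the array's 75th percentile for 8 histone probes on the 6 control arrays and the 6 arrays labelled SRSF2 over-expression (axis label SRSF2); lines show mean ± SD and marker shapes the slide. The 4 H4 probes fall least on slide 2 (squares), and the conditions do not overlap in any panel.

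The promoters of the 2 strongest H4 falls are shown because they lack an element that all windows of the other classes carry. RefSeq (GRCh38.p14) promoter windows, 250 bases before to 50 after the start, were found for 58 of the 63 genes, with 62 windows since some genes have more than 1 start. The CCAAT box (CCAAT, either strand), which the factor NF-Y is known to bind, was in all 6 H1, 14 H2A, 19 H2B and 11 H3 windows but in 3 of 12 H4 windows (25%), and in 34.6% of all 35116 windows. The TATA motif (TATAAA, either strand) was in 7 of the 12 H4 windows (58.3%) and in 11.5% of all windows. The 250 bases upstream of the H4C4 and H4C2 starts follow, 5′ to 3′ on the gene's strand, with these 2 motifs in capitals on either strand. H4C4 has 1 TATA motif there and H4C2 has 2, and neither has a CCAAT box. In the same stretch H4C13, which fell, has 1 CCAAT box and H4C8, which did not pass the test, has 0, so its letters did not go along with the falls one for one. A match is a description of the letters and not a test of binding.
H4C4 (chr6:26189113-26189362, minus strand): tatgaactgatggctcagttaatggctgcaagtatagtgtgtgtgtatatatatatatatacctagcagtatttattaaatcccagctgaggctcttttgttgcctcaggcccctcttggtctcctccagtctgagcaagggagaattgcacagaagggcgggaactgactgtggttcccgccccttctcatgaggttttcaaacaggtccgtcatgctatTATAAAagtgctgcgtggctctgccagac
H4C2 (chr6:26027284-26027533, minus strand): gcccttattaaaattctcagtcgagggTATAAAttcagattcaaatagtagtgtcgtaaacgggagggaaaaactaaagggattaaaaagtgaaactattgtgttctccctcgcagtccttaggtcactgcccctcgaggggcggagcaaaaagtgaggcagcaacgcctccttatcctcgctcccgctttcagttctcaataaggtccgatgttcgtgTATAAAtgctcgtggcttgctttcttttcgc

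The linker histones split within their class. H1-1 had the largest fall of any histone probe tested. It ran from -1.99 to -1.39 (median -1.43) on control arrays and from -3.75 to -2.52 (median -3.15) on arrays labelled SRSF2 over-expression, without overlap. The log2 fold change was -1.57 ± 0.22 (SE, limma adjusted p = 4.63e-05), and it was -1.78, -1.24 and -1.70 on slides 1, 2 and 3. With normexp background correction it was -1.06 and no longer called (adjusted p = 0.0857). H1-5 ran from -0.98 to -0.86 and from -1.70 to -1.11, also without overlap, with a log2 fold change of -0.52 ± 0.09 (SE, limma adjusted p = 0.000367) that ranged from -0.79 on slide 1 to -0.25 on slide 3, and was not called under spike-in scaling (adjusted p = 0.328) or normexp (0.159). H1-4 was lower with a log2 fold change of -0.33, and H1-3 (-0.08) and H1-2 (-0.01) did not pass the test. All 5 tested H1 genes lie on chromosome 6.

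H2A was the class with the most falls. H2AC1, a copy known mainly from testis, ran from -1.34 to -1.08 (median -1.15) on control arrays and from -2.79 to -1.95 (median -2.51) on the others. The conditions did not overlap and the log2 fold change was -1.23 ± 0.12 (SE, limma adjusted p = 2.66e-06), with -1.37, -0.94 and -1.38 on the 3 slides. H2AC20 fell on both of its probes, by 0.72 ± 0.08 and 0.43 ± 0.07 on the log2 scale (SE, limma adjusted p = 5.44e-06 and 0.000158). Both H2AC21 probes were lower too, with log2 fold changes of -0.73 ± 0.09 and -0.40 ± 0.11 (SE, limma adjusted p = 2.07e-05 and 0.00882). These 2 genes lie on chromosome 1, apart from the large cluster on chromosome 6. H2AC14 had 2 lower probes as well, and the more precise ran from 0.54 to 0.76 on control arrays and from 0.04 to 0.21 on the others, with a log2 fold change of -0.54 ± 0.05 (SE, limma adjusted p = 1.42e-06). The H2AC16 probe had a difference of -0.88, but its signal cleared the background on 5 control arrays and 3 of the others. It was tested through the control arrays alone, so its call is not read as a fall, and control replicate 1 stood apart at -2.76. Under spike-in scaling the H2AC20, H2AC21 and H2AC14 probes named here were not called (adjusted p from 0.0858 to 0.548), and under normexp the 2 H2AC21 probes, 1 of H2AC20 and 1 of H2AC14 were not (0.114 to 0.444).

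A single H2A probe was higher, and it disagreed with the other probe of its gene. For H2AC11 the dim probe A_24_P414658, which cleared the background on 4 control arrays and 5 of the others, had a difference of 0.67 with overlapping conditions, and since it was tested through the latter arrays alone its call is not read as a rise. Without this probe and that of H2AC16, the tested probes that passed the filter in 1 condition, 14 of 18 H2A probes were lower and 0 were higher. The brighter probe A_24_P303354 had -0.37 ± 0.14 (SE, limma adjusted p = 0.0452), a call lost under 8 of the alternatives. With normexp background correction the dim probe had -0.07, so its direction depends on how the background was handled. Over the 10 histone genes with several tested member probes, 7 had probes of 1 sign, and 3, H2AC11, H2BC21 and H3C2, had probes of both signs. The tested H2A probes other than A_24_P414658 ran from -1.23 to -0.12.

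H2B is the partner of H2A, and most of its member probes rose by little but evenly. H2BC4 had the largest rise, from 0.40 to 0.54 (median 0.47) on control arrays to 0.80 to 1.23 (median 0.96) on the others, without overlap. Its log2 fold change was 0.53 ± 0.07 (SE, limma adjusted p = 3.32e-05), a fold change of 1.44, with 0.53, 0.45 and 0.62 on the 3 slides. H2BC9 ran from 3.28 to 3.41 on control arrays and from 3.59 to 3.71 on the others, with a log2 fold change of 0.31 ± 0.04 (SE, limma adjusted p = 3.52e-05) and with 0.29, 0.32 and 0.33 on the slides. It was 0.53 under spike-in scaling and 0.51 under normexp, and called under neither (adjusted p = 0.0663 and 0.109). Its replicate spread (SD 0.05 in both conditions) was among the smallest of the histone probes. The remaining 13 called H2B probes lay between 0.21 and 0.38. Among them was the H2BC5 probe at 0.31. A probe outside the members that carries the older H2BC5 name HIST1H2BD had -1.36 ± 0.20 (SE, limma adjusted p = 7.57e-05). The 4 H2B probes that passed no test were those of H2BC3 (0.13) and H2BC7 (0.02), 1 of 2 of H2BC6 (0.18) and 1 of 3 of H2BC21 (-0.04). For H2BC3 and for H2BC7, 1 array with the SRSF2 label on slide 3 was far below the others of its condition. It was a different array for each probe. For H2BC3 it was replicate 5, at 1.30 (others 1.71 to 2.03), and for H2BC7 replicate 6, at 2.42 (others 3.15 to 3.59). Without slide 3 the H2BC3 and H2BC7 probes had 0.27 and 0.22, and were still not called (limma adjusted p = 0.122 and 0.222). H2BC6 A_23_P30776 passed in a fit with the replicate number as a block (adjusted p = 0.00369), but not with the mean of 2 arrays as 1 replicate and the slide as a block (adjusted p = 0.0636).

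Several H2A and H2B genes share a promoter, which sets the 2 directions side by side over the same stretch of DNA. By the RefSeq starts, 11 such pairs start head to head with 193 to 247 bases between the starts, and in 8 of them both genes had tested probes. In 6 of these 8 pairs an H2A probe was called lower and an H2B probe higher. Over the whole classes 15 of 20 H2A probes were lower and 15 of 19 H2B probes were higher, so most pairs would show this from the class shares alone. These pairs were picked after the class values were seen, and the pairs are described with no test of their own. For H2AC14 and H2BC14, the H2B probe ran from 2.5 to 2.69 on control arrays and from 2.84 to 3.05 on the others (log2 fold change 0.36 ± 0.05 SE), while the H2AC14 probes had -0.54 and -0.50. For H2AC15 and H2BC15, the H2A probe ran from 3.82 to 4.06 and from 3.57 to 3.78 (-0.31 ± 0.06 SE) and the H2B probe from 2.17 to 2.33 and from 2.49 to 2.70 (0.34 ± 0.05 SE). Neither of the 2 pairs had a probe whose conditions overlapped, and the H2A and H2B genes of each lay on opposite sides of 0.

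On chromosome 1, H2AC20 had -0.72 and -0.43 and its neighbour H2BC21 had 0.35, 0.33 and -0.04 on its 3 probes. H2AC25 had -0.32 and H2BC26 had 0.30. H2AC17 had -0.38 and -0.12 with H2BC17 at 0.26. H2AC11 had -0.37 and 0.67 with H2BC11 at 0.25, the pair in which the dim probe disagrees. In the other 2 of the 8 pairs 1 gene did not pass the test: H2AC8 had -0.27 (adjusted p = 0.238, or 0.000608 with the replicate number as a block) beside H2BC8 at 0.38, and H2AC7 was lower at -0.20 beside H2BC7 at 0.02. Without slide 3, which holds the low H2BC7 array, H2BC7 had 0.22 (limma adjusted p = 0.222). In the 3 pairs with 1 gene tested, H2AC1 had -1.23, H2BC4 had 0.53 and H2BC13 had 0.31.

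**Figure D4:**
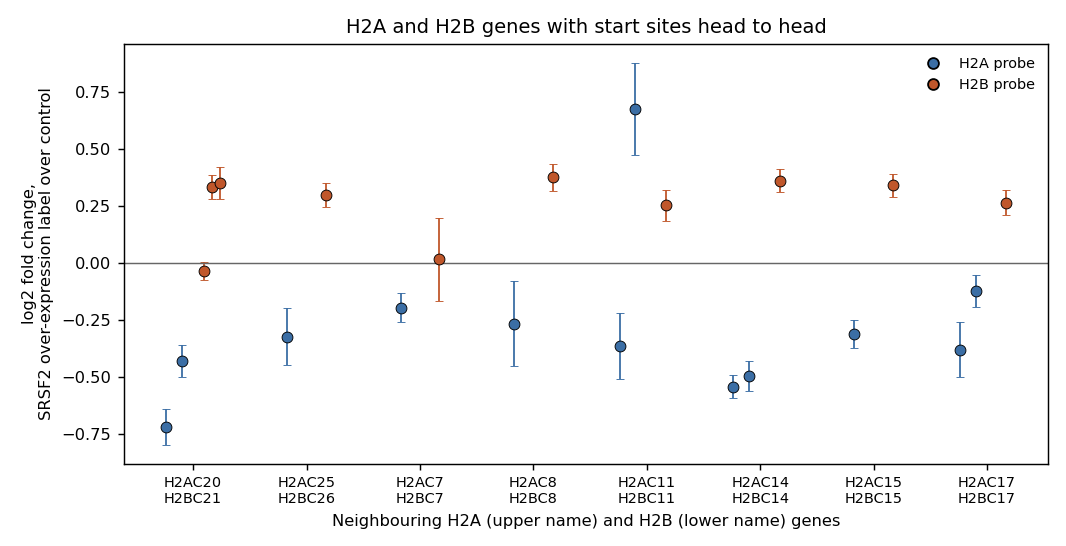
Log2 fold change (arrays labelled SRSF2 over-expression over control arrays, 6 of each) of every tested probe of the 8 head-to-head H2A and H2B gene pairs, with standard errors. H2B probes lie at or above -0.04 and H2A probes at or below -0.12, except the dim H2AC11 probe at 0.67.

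The DNA between the starts of 3 of these pairs is shown because the genes of a pair start from it on opposite strands. The octamer ATTTGCAT (either strand), known as a binding site of POU2F1, was in 14 of 19 H2B windows (73.7%) and 11 of 14 H2A windows (78.6%), many of which are the same DNA read from both sides, and in 1.77% of all windows. It was in 0 of 6 H1 windows, 1 of 11 H3 windows and 0 of 12 H4 windows. The TATA motif was in 14 of 19 H2B windows (73.7%) and 10 of 14 H2A windows (71.4%). In the stretches below, given 5′ to 3′ on the plus strand from GRCh38.p14, capitals mark the octamer, the CCAAT box and the TATA motif on either strand, and the marked motifs do not overlap. H2AC14, H2AC15 and H2BC21 start beyond the left end on the minus strand, and H2BC14, H2BC15 and H2AC20 beyond the right end on the plus strand. The first holds 1 octamer, 5 CCAAT boxes and 1 TATA motif, the second 0, 3 and 0, and the third 1, 3 and 2. Falls of the H2A gene and rises of the H2B gene were thus seen both with and without the octamer letters.
H2AC14/H2BC14 (chr6:27814778-27815021, plus strand): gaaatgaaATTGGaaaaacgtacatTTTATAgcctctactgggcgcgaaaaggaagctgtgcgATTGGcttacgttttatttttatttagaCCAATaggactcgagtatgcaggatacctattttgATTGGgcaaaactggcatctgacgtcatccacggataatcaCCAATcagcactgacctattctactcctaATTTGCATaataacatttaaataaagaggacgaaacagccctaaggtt
H2AC15/H2BC15 (chr6:27838376-27838568, plus strand): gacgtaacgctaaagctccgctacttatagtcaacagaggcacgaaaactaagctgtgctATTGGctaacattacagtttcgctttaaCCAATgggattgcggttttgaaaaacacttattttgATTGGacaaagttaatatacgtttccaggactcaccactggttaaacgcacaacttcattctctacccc
H2AC20/H2BC21 (chr1:149886683-149886917, plus strand): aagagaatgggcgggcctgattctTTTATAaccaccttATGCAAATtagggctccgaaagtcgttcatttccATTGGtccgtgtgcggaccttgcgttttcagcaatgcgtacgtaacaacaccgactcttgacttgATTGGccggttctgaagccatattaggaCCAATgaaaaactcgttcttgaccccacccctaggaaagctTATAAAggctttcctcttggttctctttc

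H3 followed neither partner. Of 13 tested H3 probes, 1 was higher and 2 were lower, and 10 did not pass the test. H3C1 ran from 3.90 to 4.16 (median 3.99) on control arrays and from 4.21 to 4.56 (median 4.27) on the others, with a log2 fold change of 0.32 ± 0.07 (SE, limma adjusted p = 0.00188). It was not called under spike-in scaling, normexp or with the mean of 2 arrays as 1 replicate (adjusted p from 0.0551 to 0.123). H3C2 was lower on probe A_23_P93258, with -0.60 ± 0.10 (SE, limma adjusted p = 0.000225) and no overlap, though it was not called under spike-in scaling (adjusted p = 0.201). Its brighter probe A_24_P174924 had 0.01 ± 0.15 (SE, limma adjusted p = 0.949, 1 array missing). The missing array carried the SRSF2 label and lay on slide 1, where this probe was highest. Within slides 1, 2 and 3 the difference was 0.08, 0.12 and 0.04. The other lower probe was that of H3C10 (-0.42). With the replicate number as a block, 4 more H3 probes passed, those of H3C3 (adjusted p = 0.0183), H3C6 (0.0086) and both of H3C15 (0.0299 and 0.0174), all of them higher, by 0.12 to 0.26 on the log2 scale. None of the 4 passed when the mean of 2 arrays was 1 replicate and the slide a block (adjusted p from 0.0508 to 0.188).

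H3 was also the class in which the slide moved the signal most. For each probe the mean over the 4 arrays of a slide was taken, and the range of the 3 slide means was compared. Its median was 0.51 over H3 probes, 0.33 for H2A, 0.29 for H4, 0.27 for H1 and 0.19 for H2B, beside 0.24 over all probes tested. The range was above 1 for 4 of the 68 histone probes, all H3, beside 2.54% of all probes. H3C12 had slide means of 0.31, -1.53 and -0.61, H3C11 of 1.52, -0.08 and 0.38, H3C4 of 1.92, 0.45 and 0.97, and H3C7 of -0.57, -1.81 and -1.18. All 4 were highest on slide 1 and lowest on slide 2. Their log2 fold changes between conditions lay between -0.04 and 0.04 and passed neither fit. What differed between slides, such as the labelling, the hybridisation or the cells, cannot be told apart here.

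**Figure D5:**
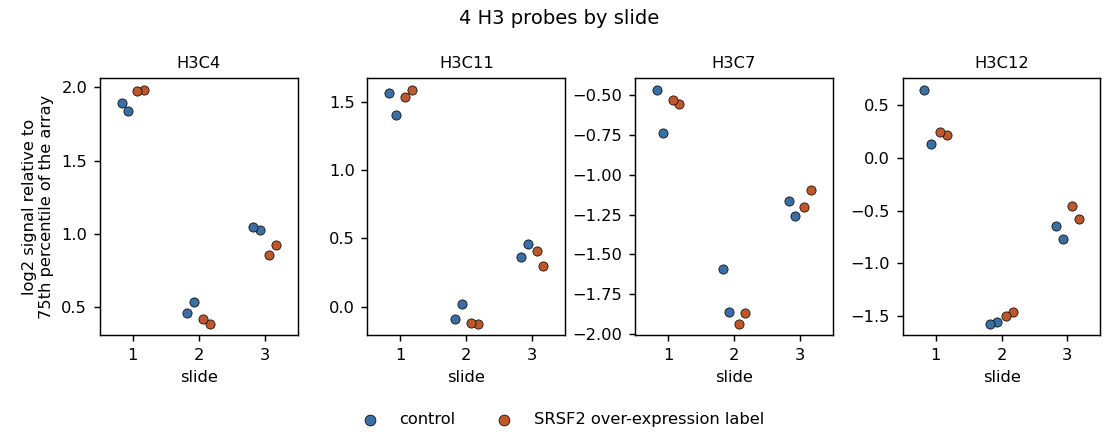
Log2 signal relative to the array's 75th percentile of 4 H3 probes (for H3C4 the probe A_24_P217834) on each array, by slide and condition. In every panel slide 1 is highest and slide 2 lowest in both conditions, and arrays of the 2 conditions on a slide lie together.

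The 7 histone probes that were too dim to test came from H1-6, H2AC6, H2BC1, H3C4, H4C5, H4C7 and H4C16. H1-6 and H2BC1 are known as testis copies. The probes of H1-6, H4C5, H4C7 and H4C16 were well above background on 0 of the 12 arrays, that of H3C4 on 1 and that of H2AC6 on 3. H2BC1 cleared the background on 2 control arrays and on none of the others, with -4.63 to -4.36 on control arrays and -5.85 to -5.19 on the others. Its neighbour H2AC1, across the shared promoter, is the H2A gene with the largest fall.

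Genes that act on histone mRNAs did not move in 1 direction. In the list of histone transcription and 3′ end processing factors, 8 of 19 tested probes were higher (42.1%) and 2 were lower (10.5%), beside 29.5% and 28.4% of all probes, with a median log2 fold change of 0.13. SLBP, which binds the stem-loop, did not pass the test (-0.04 ± 0.06 SE, limma adjusted p = 0.615). NPAT, the cyclin E target that activates histone genes, was higher on 1 probe (0.47 ± 0.14 SE, limma adjusted p = 0.00991) and did not pass on the other (0.13, 0.063). COIL, the marker protein of Cajal bodies, rose from between -3.27 and -2.90 to between -2.10 and -1.64 (1.17 ± 0.09 SE, limma adjusted p = 3.53e-07), and LSM11 of the U7 particle rose by 0.67 ± 0.07 (SE). ZNF473, which bridges the U7 particle and the stem-loop complex, had a probe that rose by 1.39 ± 0.07 and a probe with -1.11 ± 0.06 (SE, limma adjusted p = 6.89e-09 and 1.95e-08). The 2 ZNF473 probes were each without overlap between conditions, so that no single direction can be given for the gene.

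Factors that make poly(A) tails bear on which histone mRNAs the labelling could read. Of 21 tested probes of the cleavage and polyadenylation list, 8 were higher (38.1%) and 6 were lower (28.6%), near the 29.5% and 28.4% of all probes, with a median of 0.10. PAPOLA, the poly(A) polymerase, had 4 probes that disagreed, 1 at 0.93 ± 0.08 (SE, limma adjusted p = 6.52e-07), 1 at -0.43 ± 0.11 (adjusted p = 0.00464) and 2 at 0.15 and -0.11 that did not pass the test. FIP1L1 had 0.64 ± 0.19 on a dim probe with overlapping conditions and -0.11 ± 0.05 (adjusted p = 0.0759) on a bright one. CPSF7 rose by 1.10 ± 0.10 and CLP1 by 0.82 ± 0.05 and 1.04 ± 0.07 on its 2 probes. CPSF1 was lower with -0.60 ± 0.08, and CSTF3 with -0.59 ± 0.11 and -0.25 ± 0.09. In the decay list 4 of 13 probes were higher (30.8%) and 5 were lower (38.5%), with a median of -0.15, among them the decapping enzyme DCP2 (0.79 ± 0.08 and 0.24 ± 0.06), the exosome subunit EXOSC10 (-0.69 ± 0.05) and DIS3L2, whose 2 probes disagreed (1.30 ± 0.08 and -0.60 ± 0.12). The part of these genes in the histone differences was not tested.

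Chaperones and markers of DNA synthesis had members called in both directions, more of them lower than higher. Of 20 tested chaperone probes 9 were lower (45%) and 4 were higher (20%), beside 28.4% and 29.5% of all probes, with a median of -0.23. CHAF1A, a subunit of the CAF-1 complex that loads new H3 and H4, fell by 0.94 ± 0.05 on the log2 scale (SE, limma adjusted p = 1.96e-08), and CABIN1 had -0.78 ± 0.06 and -0.25 ± 0.10 on its 2 probes. RBBP4 disagreed between probes, with 0.69 ± 0.15 on a dim probe and -0.48 ± 0.09 (limma adjusted p = 0.000704, no overlap) on a bright one. SUPT16H of the FACT complex had 0.62 ± 0.11 on 1 probe and -0.54 ± 0.23 (adjusted p = 0.0597) on the other. Of 28 probes of DNA synthesis genes 12 were lower (42.9%) and 7 were higher (25%), with a median of -0.03. The replication fork genes CDC45 (-0.84 ± 0.08), GINS2 (-0.81 ± 0.04), MCM3 (-0.75 ± 0.05) and MCM5 (-0.71 ± 0.08) were lower, and RRM2 (0.81 ± 0.10 and 0.25 ± 0.08), CCNE2 (0.67 ± 0.16) and FEN1 (0.62 ± 0.10 and 0.51 ± 0.08) were higher. The fork genes did not all fall. Of the other MCM and GINS genes listed, MCM2 was lower (-0.52 ± 0.11) and MCM6 was higher (0.37 ± 0.06). MCM4 (0.08), MCM7 (0.01) and GINS1 (0.07) did not pass the test. The summed level of the 28 probes was 405 to 449 on control arrays and 330 to 384 on the others, in units of the array's 75th percentile, so the conditions did not overlap. The sum is of unlogged signals, so the brightest probes weigh most. Among these were MCM3, with mean log2 signals of 6.14 and 5.39, and MCM7, with 6.46 and 6.47. It is given for the scaling on the 75th percentile only. The difference in the sum went along with the lower H2A and H4 signals and against the higher H2B signals, and its part in them was not tested.

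Histones whose genes are not tied to DNA synthesis were a list of 12 genes with 19 tested probes. Of these 5 were higher (26.3%) and 3 were lower (15.8%), beside 29.5% and 28.4% of all probes, with a median of 0.13. Both shares were thus below those of all probes. CENPA, the H3 variant of centromeres, ran from -0.05 to 0.05 on control arrays and from 0.62 to 1.00 on the others (0.80 ± 0.07 SE, limma adjusted p = 5.2e-07). The conditions did not overlap, and the difference was larger in size than that of any tested H3 probe of the replication-dependent genes.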

How the data were processed

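Expression was measured on 12 one-colour Agilent arrays, 6 control and 6 labelled SRSF2 over-expression, with cyanine3-labelled cRNA. The authors deposited the output of Feature Extraction 10.7.3.1, which gives for each spot a background-subtracted intensity, the median intensity, the local background and flags, and a table of log2 values that matched the log2 intensities scaled on each array's 75th percentile and then centred per probe (99.4% of values within 0.05). Here log2 intensities were scaled on the 75th percentile of the gene probes of each array, outlier spots were set to missing and spots of a probe averaged. Tested probes were missing on no more than 25% of arrays and well above background on 5 or more of a condition's 6 arrays, which left 24336 of 41000. The fit used limma 3.58.1 (lmFit, eBayes) under R 4.3.3 with condition as its only term and Benjamini-Hochberg adjustment over all probes tested. Single probes were also compared by a two-sided exact permutation test over the arrangements of 6 arrays against 6 (scipy 1.17.1).

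Of 25868 probes with a RefSeq accession, 23953 were named through the GRCh38.p14 gene table. The files' annotation is of another build, so no gene coordinates are given, and promoter coordinates are those of RefSeq. The members, gene lists and tests were chosen with earlier results of these data known. Named were member probes past the threshold with a fold change of at least 1.5, all probes of those genes, the 2 smallest p in each class, the probe of the study's RT-PCR, list probes past the threshold with 1.5-fold, and SLBP, NPAT and ZNF473, except a few list genes that are not reported here. Other members and list genes named by symbol were chosen after their values were seen.

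Arrays of the same replicate number deviated together (correlations from 0.28 to 0.64 over 6 pairs), as did other arrays of a slide (0.33 to 0.65). The numbers thus pair arrays through their slide. Arrays of different slides had correlations from -0.48 to -0.05. Deviations were taken from the condition mean and cancel out within a condition, so these negative values follow in part from the computation. Alternatives were other scalings, background corrections and filters, the authors' table, the methods' t-test on the same values, replicate or slide blocks, array means and slides left out. The mean spot intensity is not among the columns used, and the median took its place for normexp. Precision is limited by how many arrays there are and by how far dim probes rise above background.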

Additional observations from a re-analysis of the deposited data

Results flagged for a closer look

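In 2 of 44 groups of a named probe's arrays in 1 condition (6 arrays, or 5 where 1 was missing), 1 array stood apart from the others by Dixon's test, where chance gives about 1 in 20. For H2AC16 the highest control array, replicate 1 on slide 1, was at -2.76 with the nearest at -3.55, and the probe is dim. For the H3C2 probe A_24_P174924 the highest array labelled SRSF2 over-expression, replicate 1 on slide 1, was at 4.18 with the nearest at 3.76. That group had 5 arrays, since the other array of slide 1 was missing. The control arrays of slide 1 were high as well, at 3.99 and 4.21 beside 3.48 to 3.68 on the other slides.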

How the results depend on the processing

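The H2A and H4 medians stayed below 0 and the H2B median above 0 under every alternative, and the H2B median minus the H2A median stayed between 0.64 and 0.74. The counts of calls did not. Scaling on spike-in controls, which moved the median of all probes by 0.21, left 5 histone probes higher and 7 lower, 2 of them by 2-fold, with 2 H2A probes lower, 4 H2B probes higher and 4 H4 probes lower, and moved the median of the histone probes to 0.13. Normexp, which moved the median of all probes by -0.11, left 2 higher and 6 lower, 1 of them by 2-fold, with 3 H2A probes lower and 0 higher, 2 H2B probes higher and 2 H4 probes lower. With the mean of 2 arrays as 1 replicate 11 were higher and 17 lower, with 8 H2A probes lower and 0 higher; with slide as a block as well, the counts were 17 and 28. With the replicate number as a block, the paired fit, 22 were higher and 31 lower; it added 9 calls and lost 0. Without a filter 1 H2B probe, that of H2BC1, was lower. The single higher H2A probe was not called when all arrays had to be well above background (0) or without slide 3 (0), and was at -0.066 under normexp. Without slide 1, 2 probes were lower by 2-fold. At a threshold of 1.5-fold 11 were lower and 1 was higher. The H3C2 probe A_24_P174924, near 0, had -0.0043 with scaling on the median, -0.015 without slide 2 and -0.00025 without the 2 arrays with the fewest spots above background, a setting chosen after seeing the data that left 17 higher and 24 lower. Of 21 named histone probes, 11 lost their call under spike-in scaling. Under normexp 12 lost it with their sign kept, and 1 more, the dim H2AC11 probe, lost it with its sign reversed. The causes were not tested. Dim probes limit what can be called.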

Other observations

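Probes that carry histone names in a supplementary table of the study, but no RefSeq accession of a member, were left out of the members. The probe A_32_P152348, named HIST1H2BD there, ran from 1.89 to 2.5 on control arrays and from 0.57 to 1.59 on arrays labelled SRSF2 over-expression. Its log2 fold change was -1.36 ± 0.20 (SE, limma adjusted p = 7.57e-05), while no H2B member probe was lower. HIST1H2BD is an older name of H2BC5, whose member probe was higher (0.31 ± 0.06 SE, limma adjusted p = 0.000716). No single direction can thus be given for H2BC5. The probe A_24_P261691, named HIST4H4 there, cleared the background on 2 control arrays and 5 of the others, and ran from -5.28 to -4.45 and from -3.92 to -3.36. It was tested through the latter arrays alone, so no fold change is given. HIST4H4 is an older name of H4C16, whose member probe was well above background on none of the arrays.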
